A study of Mus musculus with 20 samples.

Results

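The mitochondrial respiratory chain and the ATP synthase were followed through the RNA of their subunits in mouse liver. The members were taken by name from the table of counts. A gene was a member when its symbol began with Ndufa, Ndufb, Ndufc, Ndufs or Ndufv and a number, was Sdha, Sdhb, Sdhc or Sdhd, began with Uqcr, with Cox and a number from 4 to 8, or with Atp5, or was a mitochondrially encoded subunit (mt-Nd, mt-Co, mt-Cytb or mt-Atp). The rule took 103 of 48440 genes, of which 90 were encoded in the nucleus and 13 in the mitochondrial genome. Among the nuclear members 6 were processed pseudogenes (Atp5k-ps2, Atp5l-ps1, Atp5l-ps2, Atp5l2-ps, Uqcrh-ps1 and Uqcrh-ps2), and 2, Atp5s and Atp5sl, are now called Dmac2l and Dmac2, which are not ATP synthase names. Many of the other Atp5 symbols have newer forms as well. Enough counts for a test were present for 93 members, namely 81 nuclear and 12 mitochondrially encoded ones, among 16071 genes tested. The tested nuclear members fell to complex I (37), complex II (4), complex III (8), complex IV (13) and complex V (19) by symbol.

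All 20 livers came from wild-type female C57BL/6 mice (C57BL/6J by the methods), 8 weeks old, killed after 5 weeks of treatment, 5 mice in each of 4 groups. Corticosterone (CORT, the main glucocorticoid of the mouse, 100 µg/ml) or its ethanol vehicle was given in the drinking water. Every mouse also received 2 intraperitoneal injections per week of an antibody at 5 mg/kg, either the neutralizing monoclonal antibody against acyl-CoA binding protein (αACBP, against the protein also called DBI) or an IgG2a isotype control, so no group was free of injected antibody. The groups given the control antibody are Isotype + Vehicle and Isotype + CORT, those given the neutralizing one are αACBP + Vehicle and αACBP + CORT, and the study asked whether neutralizing ACBP/DBI prevents the metabolic consequences of glucocorticoid excess.

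The respiratory chain sits in the inner mitochondrial membrane. Complex I (NADH dehydrogenase) and complex II (succinate dehydrogenase) pass electrons to ubiquinone, complex III (the cytochrome bc1 complex) passes them to cytochrome c, complex IV (cytochrome c oxidase) passes them to oxygen, and complex V (ATP synthase) uses the proton gradient so formed to make ATP. Complexes I, III, IV and V are built from subunits of both genomes, while complex II is wholly nuclear, and hepatocytes, which are rich in mitochondria, use the chain to supply ATP for glucose and urea synthesis.

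The mitochondrial genome has old copies in the nuclear chromosomes, and the members differ in how much of their sequence such copies share. An ungapped copy of chrM:6394-9828 (3435 bases) lies on the minus strand at chr1:24651831-24655265 in GRCm39, and it differs from the mitochondrial genome by 1 substitution, T3C in mt-Nd3, counted from 1 at the first base of the gene. The starts of mt-Co2 (chrM:7013-7072, plus strand) and mt-Nd3 (chrM:9459-9518, plus strand) are shown with the same bases of the copy (chr1:24654587-24654646 and chr1:24652141-24652200, minus strand), because the letters of the 2 places are the same but for the substituted base, which is in capitals.
mt-Co2: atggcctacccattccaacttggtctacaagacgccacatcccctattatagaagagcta
nuclear copy of mt-Co2: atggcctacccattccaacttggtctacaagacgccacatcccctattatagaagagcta
mt-Nd3: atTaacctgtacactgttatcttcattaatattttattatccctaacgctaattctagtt
nuclear copy of mt-Nd3: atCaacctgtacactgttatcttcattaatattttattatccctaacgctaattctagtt

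All of the 100-base words of mt-Co2, mt-Co3, mt-Atp6, mt-Atp8 and mt-Nd4l, and 98.8% of those of mt-Nd3, were also found elsewhere in the genome. The share was 60.8% for mt-Nd4, 30.8% for mt-Co1, 3.19% for mt-Nd2 and 0 for mt-Nd1, mt-Nd5, mt-Nd6 and mt-Cytb. The methods say that the counting took in non-unique features but not how pairs with several alignments were treated, and a separate line of the table holds 5.92% to 10.6% of the pairs of a liver as not uniquely aligned. Mean counts per liver were lower for the genes with nearly all words elsewhere. The other 7 had 242281 for mt-Co1, 210402 for mt-Cytb, 153809 for mt-Nd4, 135672 for mt-Nd1, 122069 for mt-Nd2, 38534 for mt-Nd5 and 18922 for mt-Nd6. The 6 genes with nearly all words elsewhere had 3842 (mt-Co2), 1654 (mt-Co3), 1288 (mt-Atp6), 172 (mt-Nd3), 18.4 (mt-Nd4l) and 0.3 (mt-Atp8). Whether the copies account for this was not tested, and the counts of these 6 may not stand for their transcripts. Annotated pseudogenes of such copies took counts as well, with medians over the livers of 5013.5 for Gm28661, 1538 for Gm29216, 1290 for Gm28437, 1266 for Gm10925, 210 for Gm28439 and 120 for Gm28438.

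**Figure D1:**
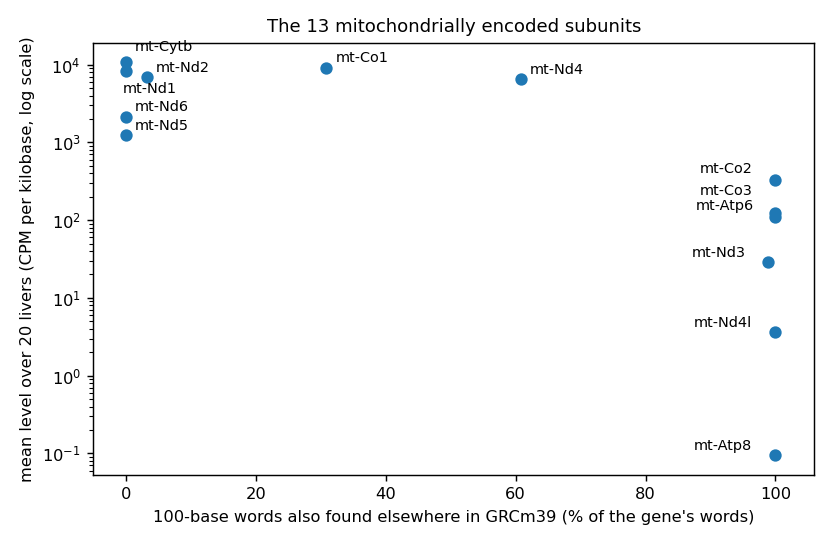
Mean level over the 20 livers (vertical, CPM per kilobase, log scale) of the 13 mitochondrially encoded members against the percent of their 100-base words that also lie elsewhere in the genome (horizontal). The 6 genes with 98.8% or more of words elsewhere reach at most 326 CPM per kilobase (mt-Co2), and the 7 others have at least 1228 (mt-Nd5).

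For the nuclear members, promoters are shown for Atp5f1, Ndufb6 and Cox7b, the 3 nuclear members that differed between groups in the test given further on, and for Uqcr11, chosen after the search as the only promoter with the letters of both NRF1 and the ETS factors. They are RefSeq sequences in GRCm38.p6 from 250 bases before to 50 bases after the first listed start, at chr3:105959214-105959513 (minus strand), chr4:40279372-40279671 (minus strand), chrX:106015450-106015749 (plus strand) and chr10:80406772-80407071 (minus strand). Capitals mark the letters of the 5 motifs searched.
Atp5f1: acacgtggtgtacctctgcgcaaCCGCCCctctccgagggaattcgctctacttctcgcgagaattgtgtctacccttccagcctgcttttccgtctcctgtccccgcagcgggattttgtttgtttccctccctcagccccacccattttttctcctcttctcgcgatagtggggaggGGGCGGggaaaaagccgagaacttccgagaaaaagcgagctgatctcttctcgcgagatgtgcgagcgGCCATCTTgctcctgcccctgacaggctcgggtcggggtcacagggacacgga
Ndufb6: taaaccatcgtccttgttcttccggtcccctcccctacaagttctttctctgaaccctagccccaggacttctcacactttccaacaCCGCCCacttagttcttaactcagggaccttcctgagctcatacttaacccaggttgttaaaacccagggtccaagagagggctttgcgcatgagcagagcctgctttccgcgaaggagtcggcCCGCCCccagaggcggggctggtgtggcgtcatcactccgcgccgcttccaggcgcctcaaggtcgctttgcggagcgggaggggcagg
Cox7b: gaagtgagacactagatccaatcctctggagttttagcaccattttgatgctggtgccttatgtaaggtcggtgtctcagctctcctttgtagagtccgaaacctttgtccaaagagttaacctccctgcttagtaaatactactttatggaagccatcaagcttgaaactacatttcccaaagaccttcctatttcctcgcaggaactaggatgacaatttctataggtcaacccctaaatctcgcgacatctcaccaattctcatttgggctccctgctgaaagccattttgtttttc
Uqcr11: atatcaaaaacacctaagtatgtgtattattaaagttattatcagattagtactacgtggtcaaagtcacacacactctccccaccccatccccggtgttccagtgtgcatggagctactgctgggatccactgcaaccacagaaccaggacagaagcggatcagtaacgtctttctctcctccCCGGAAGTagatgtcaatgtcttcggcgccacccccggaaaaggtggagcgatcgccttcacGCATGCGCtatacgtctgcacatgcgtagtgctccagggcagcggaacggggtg

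A promoter was found for 69 of the 84 protein-coding nuclear members, and both strands were searched. NRF1 and the ETS factor GABP are known regulators of respiratory chain genes. The NRF1 core GCATGCGC was in 10 of them (14.5%, against 2.81% of all 27025 promoters) and the ETS letters CCGGAAGT in 5 (7.25% against 4.00%). The YY1 letters AAGATGGC were in 10 (14.5% against 2.88%), the ERR letters TCAAGGTCA in 2 (2.90% against 0.407%) and the SP1 letters GGGCGG in 28 (40.6% against 35.9%), and none of the 5 motifs is contained in another. The promoter of Atp5f1 held the YY1 and SP1 letters, that of Ndufb6 the SP1 letters, and that of Cox7b was among the 25 of 69 with none. A match is a description of letters and no evidence of binding.

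Counts on genes summed to between 14934926 and 20299999 per liver, and 42.3% to 45.2% of pairs lay on no annotated gene. The livers carried hepatocyte RNA throughout, since the summed level of the hepatocyte marker genes was 40759 to 141818 CPM (counts scaled to a common library size), against 0.196 to 6.11 for muscle, 0 to 5.93 for adipose tissue and 5.92 to 24.4 for pancreas. In whole tissue, fewer cells of a type and less RNA per cell cannot be told apart. The liver labelled αACBP + Vehicle replicate 5 stood apart from the others. Its hepatocyte markers summed to 40759 CPM, of which Alb was 25084, below the 72230 to 141818 of the other livers. It was the lowest liver for 5 of the 9 markers (Alb, Ttr, Serpina1c, Ass1 and Hnf4a) but not for Apoa1, Cps1, Cyp2e1 or Tat, the last at 1209 CPM against a median of 1202. Its scaling factor was 1.29 against 0.880 to 1.08, and 5.75% of its pairs were not aligned, the highest share of the 20. It was the lowest of the 20 livers for 74 of 81 nuclear members (91.4%) and 11 of 12 mitochondrially encoded members (91.7%), against 2656 of all 16071 genes (16.5%). Its median log2 deviation from the Isotype + Vehicle mean was -1.29 over the nuclear members, where the other 19 livers lay between -0.31 and 0.25, and -1.56 over the mitochondrially encoded ones, where the others lay between -0.59 and 0.38. Genes under 1000 bases, of which the chain has many, had a median deviation of -0.489 in this liver and of -0.201 to 0.117 in the others. The part of these features in the comparisons was not tested. For comparisons with αACBP + Vehicle, many edgeR values are therefore given with and without this liver. Other values, among them DESeq2 and limma-voom results, medians by complex and group overlaps, are given only with it.

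Most nuclear members of the chain lay above the median level of the genes tested in these livers. The 79 protein-coding nuclear members in the test had a median level of 154 CPM, against 12.0 CPM for all genes tested, and 74 of them (93.7%) lay above that median. Their range ran from 1.05 CPM (Cox6b2) to 772 CPM (Uqcrq, a small subunit of complex III). They were short genes, with a median transcript length of 1079 against 2995 bases for the 15804 genes with a known length, and 48.1% of them against 11.8% of all were under 1000 bases. By summed level, complex I had 4472 CPM, complex V 3891, complex IV 2977, complex III 2101 and complex II 586, in order of falling total but with unequal numbers of members.

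Within each complex the levels per kilobase of transcript spread widely among the tested members. In complex I they ran from 1.95 CPM per kilobase for Ndufb2, an accessory subunit with a doubtful annotated length, to 429 for Ndufa4, which carries a complex I name and is now placed in complex IV. The 4 subunits of complex II lay closest together, between 41.0 (Sdhc) and 67.3 (Sdhd), both of which anchor the enzyme in the membrane. Complex III ran from 57.2 (Uqcrc2, a core protein) to 502 (Uqcrq), complex IV from 1.75 (Cox6b2) to 780.1 (Cox4i1, the ubiquitous form of subunit 4), and complex V from 1.53 (the pseudogene Atp5l2-ps) to 889 (Atp5e, the epsilon subunit of the catalytic head). The lengths are those of 1 annotated transcript per gene, so the order of close neighbours is uncertain.

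Several subunits come in forms that differ between tissues, and the forms known from muscle or testis were low or absent here. Cox4i1 had 780.1 CPM per kilobase and Cox4i2, the form of lung and low oxygen, 0.242. Cox6a1 had 709 and the heart and muscle form Cox6a2 had 0.197, while Cox8a had 411, the muscle form Cox8b 0.0635 and Cox8c 0. Cox7a2 had 147, the muscle form Cox7a1 9.94, and Cox7a2l, which takes part in supercomplexes, 37.7. Cox6b1 had 421 against 1.75 for the testis form Cox6b2, and Cox7b had 173 while Cox7b2 had no count. The 3 genes for the c subunit of the ATP synthase ring were all expressed, Atp5g1 at 306, Atp5g3 at 290.2 and Atp5g2 at 111. Ndufa4 had 429 against 5.89 for Ndufa4l2, of which 63.3% of exon bases overlap Shmt2 on the other strand, so the source of its reads is uncertain.

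The 10 members without a test were at or near 0. Cox4i2 had a mean of 3.2 counts and no count in 14 of 20 livers, Cox6a2 a mean of 2.2 with 16 livers at 0, and Cox8b a mean of 2.25 with 16 livers at 0. Cox7b2, Cox8c and Uqcrh-ps1 had no count in any of the 20 livers, where a count of 0 allows up to 3 counts, or 0.201 CPM in the smallest library, for counting error only. Uqcrh-ps2 and Atp5l-ps2 had a mean of 0.25 counts each, Atp5l-ps1 1.4 and mt-Atp8, with 17 livers at 0, 0.3.

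The share of a liver's counts held by the chain was compared first between genomes. The mitochondrially encoded members held a median of 5.06% of the counts and the nuclear members 1.42%. For the nuclear members the share was 1.56, 1.53, 1.49, 1.31 and 1.47% in replicates 1 to 5 of Isotype + Vehicle (1.47% ± 0.0985, SD, n = 5) and 1.21, 1.45, 1.33, 1.57 and 1.62% in Isotype + CORT (1.44% ± 0.170). It was 1.28, 1.40, 1.39, 1.27 and 0.766% in αACBP + Vehicle (1.22% ± 0.262, or 1.33% ± 0.0711 without replicate 5) and 1.43, 1.51, 1.33, 1.45 and 1.36% in αACBP + CORT (1.42% ± 0.075). The 4 groups overlapped, and replicate 5 of αACBP + Vehicle alone was under 1%.

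For the mitochondrially encoded members the share was 4.96, 5.16, 4.27, 8.49 and 5.42% in Isotype + Vehicle (5.66% ± 1.64, SD, n = 5) and 5.69, 4.82, 6.16, 4.41 and 3.88% in Isotype + CORT (4.99% ± 0.930). It was 5.57, 7.75, 5.33, 7.56 and 2.91% in αACBP + Vehicle (5.82% ± 1.97, or 6.55% ± 1.28 without replicate 5) and 4.57, 4.21, 3.74, 4.48 and 8.46% in αACBP + CORT (5.09% ± 1.91). The spread within a group was wider than for the nuclear share, and again the groups overlapped. The ratio of mitochondrial to nuclear counts was 3.92 ± 1.47, 3.57 ± 1.05, 4.70 ± 0.986 (4.92 without replicate 5) and 3.62 ± 1.47 in the same order of groups. Replicate 4 of Isotype + Vehicle, with the 8.49%, also had the highest sum of the nuclear long non-coding RNAs Malat1 and Neat1 (6539 CPM). The pair was listed as a sign of RNA quality, but Neat1 made up most of this sum. Malat1 reached at most 442 CPM in any liver and Neat1 at most 6147.

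**Figure D2:**
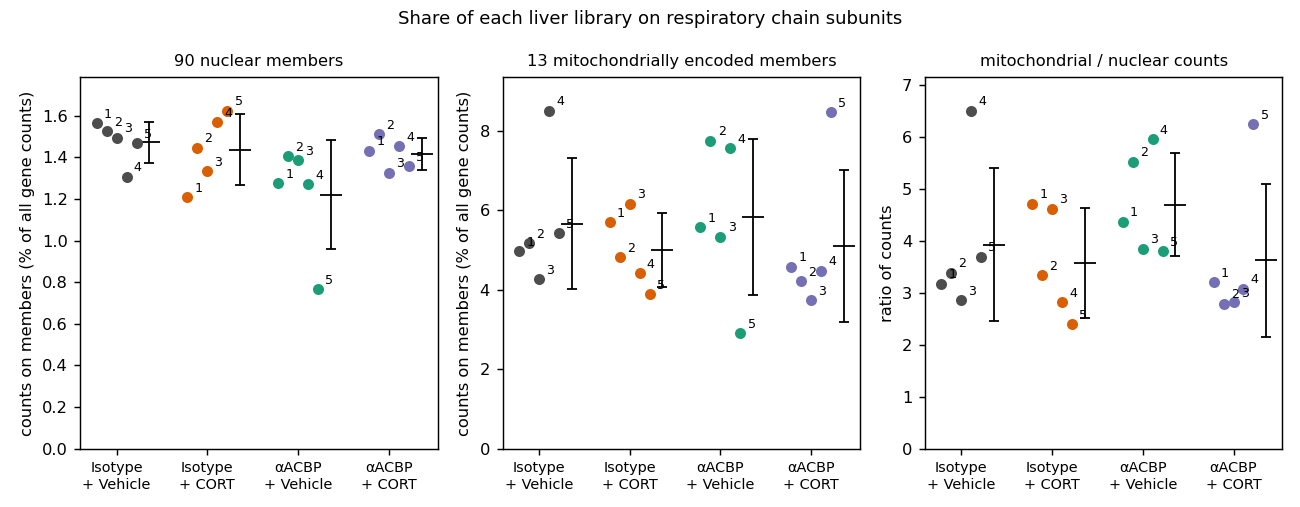
Percent of the gene counts of each liver on nuclear members and on mitochondrially encoded members, and the ratio of these counts, by group, with a point for each liver and a bar for the mean and SD. The groups overlap, with 1 αACBP + Vehicle liver at 0.766% nuclear and livers at 8.49% and 8.46% mitochondrial in Isotype + Vehicle and αACBP + CORT.

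CORT was compared with vehicle under the isotype antibody to ask what the glucocorticoid alone did to the chain. No member passed an adjusted p of 0.05 by edgeR's quasi-likelihood test, and none did by DESeq2 or limma-voom, which called 5.91% and 3.27% of all genes. An unadjusted p under 0.05 was reached by 1 of 93 members (1.08%), against 15.6% of all genes tested. For all genes, 1.34% were called higher, 1.86% lower and 1.94% past both limits, the second being a log2 fold change of 1 or more in either direction. The median log2 fold change was 0.02 over the nuclear members, with 45 above 0 and 36 below, and 0.00 over all genes. By complex the nuclear medians were 0.03 (I), -0.09 (II), -0.01 (III), 0.06 (IV) and 0.01 (V). The median 95% interval of a nuclear member, unadjusted, reached 0.42 to either side. Immune cell markers summed to 306 to 558 CPM in Isotype + Vehicle and 105 to 306 CPM in Isotype + CORT. Malat1 and Neat1 summed to 1683 to 6539 against 579 to 1028 CPM. By edgeR the log2 fold change was -2.225 for Neat1 (adjusted p = 0.0207) but -0.35 for Malat1 (adjusted p = 0.34). The part of these markers in the values above was not tested.

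The mitochondrially encoded members had a median log2 fold change of -0.21, with 9 of 12 below 0, and -0.16 over the 7 with 60.8% or fewer words elsewhere. The smallest p was that of mt-Atp6, subunit a of the proton channel of ATP synthase (chrM:7927-8607, plus strand). Its level was 94.1, 109, 102, 107 and 96.1 CPM in Isotype + Vehicle and 70.5, 100.5, 61.1, 81.6 and 48.9 CPM in Isotype + CORT. The log2 fold change was -0.49 (SE 0.22, 95% interval -0.94 to -0.03, adjusted p = 0.279 by edgeR), and the groups overlapped in 1 CORT liver. Ndufb5, an accessory subunit of complex I, was the next, with 87.7 ± 12.2 CPM in Isotype + Vehicle and 113 ± 25.0 in Isotype + CORT (SD, n = 5; log2 fold change 0.36, SE 0.19, adjusted p = 0.385 by edgeR). These 7 genes with fewer shared words spread to both sides of 0. Their log2 fold changes were -0.38 for mt-Co1, -0.27 for mt-Cytb, -0.12 for mt-Nd1, 0.28 for mt-Nd2, 0.25 for mt-Nd4, -0.16 for mt-Nd5 and -0.49 for mt-Nd6.

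αACBP was compared with isotype in mice on CORT to ask what neutralization changed under the glucocorticoid. No member was called by edgeR, by DESeq2 (2.68% of all genes) or by limma-voom (0.772%), and 0 of 93 had an unadjusted p under 0.05, against 12.5% of all genes. Of all genes, 0.635% were called higher, 0.324% lower and 0.597% past both limits. The nuclear median was -0.08, with 58 of 81 members below 0, against a median of 0.01 over all genes. The complexes lay between -0.13 (II) and -0.06 (III and V). The mitochondrially encoded median was -0.01, or 0.07 over the 7 with fewer shared words. Immune cell markers summed to 105 to 306 CPM in Isotype + CORT and 348 to 503 CPM in αACBP + CORT, without overlap, and their part in these values was not tested. The smallest p values belonged to mt-Nd4, a core subunit of the proton-pumping arm of complex I, and Ndufc2, an accessory subunit of the same arm. mt-Nd4 had 12934, 11043, 11666, 10841 and 7290.4 CPM in Isotype + CORT and 8252, 7643, 7105, 7840.3 and 10129 CPM in αACBP + CORT. The log2 fold change was -0.39 (SE 0.21, adjusted p = 0.475 by edgeR), and the groups overlapped. Ndufc2 had 45.4 ± 10.8 against 34.4 ± 6.42 CPM (SD, n = 5; log2 fold change -0.40, SE 0.22, adjusted p = 0.487 by edgeR).

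αACBP was compared with isotype in mice on vehicle, which asks what the antibody did without added glucocorticoid. Here 4 of 93 members were lower and none higher by edgeR, namely Atp5f1, mt-Atp6, Ndufb6 and Cox7b, and 1 of them, Atp5f1, passed both limits. Among all genes 2.36% were lower, 2.78% higher and 1.3% past both limits. An unadjusted p under 0.05 was found for 31 members (33.3%), against 20.6% of all genes. DESeq2 called 14 members, all lower, and 6.69% of the genes to which it gave an adjusted p were lower. Limma-voom called 15 members lower, against 5.46% of all genes, and 1 higher, against 6.17%, which was Atp5sl. Without αACBP + Vehicle replicate 5, edgeR called 1 member, Atp5f1, and 18 members had an unadjusted p under 0.05, while 0.819% of 16480 genes were called lower and 1.06% higher. With each liver of the 2 groups left out in turn the count of members called ran from 0 (without Isotype + Vehicle replicate 1) to 14 (without Isotype + Vehicle replicate 4), and it was 1 without Isotype + Vehicle replicate 2 or 5 or αACBP + Vehicle replicate 1, and 2 without Isotype + Vehicle replicate 3.

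Atp5f1 (now Atp5pb, the b subunit of the stalk that holds the ATP synthase head, chr3:105849374-105867415 in GRCm39, minus strand) had the smallest p. It stood at 291, 251, 211, 137 and 255 CPM in Isotype + Vehicle and 99.8, 128, 127, 139 and 63.4 CPM in αACBP + Vehicle. All but replicate 4 of the isotype livers lay above every αACBP liver. The log2 fold change was -1.04 (SE 0.24, 95% interval -1.53 to -0.55, adjusted p = 0.0150 by edgeR), and -0.90 without αACBP + Vehicle replicate 5 (adjusted p = 0.0393). The call was lost without Isotype + Vehicle replicate 1 (-0.94, adjusted p = 0.0554). Exons of Wdr77 and another gene on the other strand overlap 9.28% of its exon bases, and the strand setting of the counting is not given in the sources used here.

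mt-Atp6 had 94.1 to 109 CPM in Isotype + Vehicle, and 66.6, 85.3, 41.5, 63.7 and 24.4 CPM in αACBP + Vehicle, without overlap. The log2 fold change was -0.85 (SE 0.23, 95% interval -1.31 to -0.39, adjusted p = 0.0274 by edgeR), and -0.67 with an adjusted p of 0.0640 without αACBP + Vehicle replicate 5. The call was also lost without Isotype + Vehicle replicate 1, 2 or 5 or αACBP + Vehicle replicate 1 or 3 (adjusted p = 0.0516 to 0.0697). All of its 100-base words have a copy elsewhere, and how pairs that align to several places were counted is not given. The annotated copies went in both directions, and none was called by edgeR. Log2 fold changes were -1.23 for Gm29216 (adjusted p = 0.308), -0.65 for Gm10925 (adjusted p = 0.418), -0.33 for Gm28437 (adjusted p = 0.809) and -0.18 for Gm28661 (adjusted p = 0.665). They were 0.17 for Gm28439 (adjusted p = 0.887) and 2.97 for Gm28438 (SE 1.17, adjusted p = 0.155). The counts of Gm28438 had a median of 120 and a maximum of 6682. Any part of the copies in the mt-Atp6 values was not tested.

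Ndufb6 (complex I, chr4:40270581-40279468 in GRCm39, minus strand) had 104, 107, 96.5, 59.7 and 101 CPM in Isotype + Vehicle and 52.3, 62.5, 76.9, 62.8 and 29.2 CPM in αACBP + Vehicle. The groups overlapped through Isotype + Vehicle replicate 4. The log2 fold change was -0.72 (SE 0.21, 95% interval -1.15 to -0.29, adjusted p = 0.0416 by edgeR), or -0.57 with an adjusted p of 0.0987 without αACBP + Vehicle replicate 5. Cox7b (complex IV, chrX:105055638-105066240 in GRCm39, plus strand) had 231, 213, 189.6, 172 and 221 CPM against 123, 157, 154, 137 and 55.9 CPM. Its groups did not overlap, and the log2 fold change was -0.71 (SE 0.21, 95% interval -1.14 to -0.29, adjusted p = 0.0423 by edgeR), or -0.53 with an adjusted p of 0.0810 without that liver. Ndufb6 lost the call without any 1 of Isotype + Vehicle replicates 1, 2, 3 and 5 or αACBP + Vehicle replicates 1, 2 and 5 (adjusted p = 0.0538 to 0.113), and Cox7b without any 1 of Isotype + Vehicle replicates 1, 2, 3 and 5 or αACBP + Vehicle replicates 1, 4 and 5 (adjusted p = 0.0528 to 0.116). Both also lost the call when only the groups compared entered the fit, at adjusted p = 0.0546 for Ndufb6 and 0.0570 for Cox7b.

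**Figure D3:**
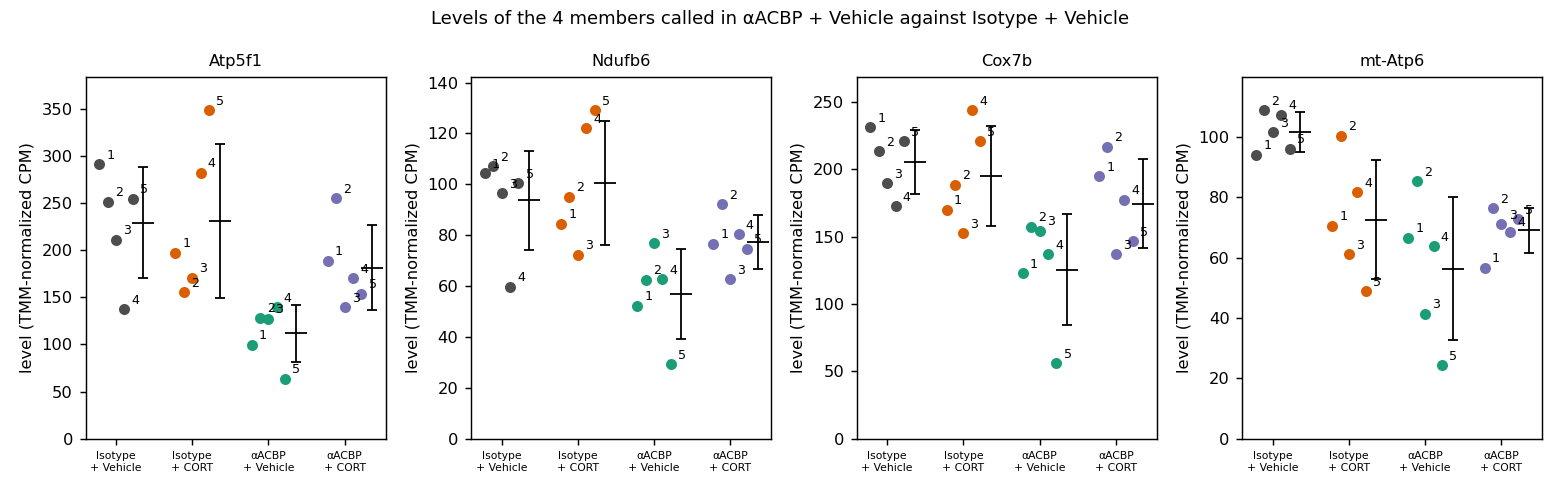
Level (TMM-normalized CPM) of Atp5f1, Ndufb6, Cox7b and mt-Atp6 in each liver of the 4 groups, with the group mean and SD. In αACBP + Vehicle all 4 genes have their lowest value in replicate 5, and in Cox7b and mt-Atp6 no αACBP + Vehicle liver reaches the Isotype + Vehicle livers.

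The other members lay to the same side more often than not. The nuclear median was -0.37 with 71 of 81 below 0, against -0.02 over all genes, and without αACBP + Vehicle replicate 5 it was -0.20 with 66 of 81 below 0. By complex, with all livers, the medians were -0.30 (I), -0.57 (II), -0.42 (III), -0.35 (IV) and -0.37 (V). All members were read in the same livers, so the count of members below 0 is a description. The summed hepatocyte markers lay at 72230 to 125788 CPM in Isotype + Vehicle and at 40759 to 97052 CPM in αACBP + Vehicle, and the part of this in the result was not tested. No single hepatocyte marker was called by edgeR. Alb, the largest part of the sum, had a log2 fold change of -0.55 (adjusted p = 0.180 by edgeR). Apoa1 (0.05), Hnf4a (0.11) and Tat (0.11) lay above 0 and the other hepatocyte markers below. Among members named after their values were seen, Sdha, the flavoprotein of succinate dehydrogenase, had a log2 fold change of -0.85 with an adjusted p of 0.0504, and Ndufa4 one of -1.16 (SE 0.35, adjusted p = 0.0559), or -0.95 (adjusted p = 0.0928) without that liver. For Sdha it was -0.73 without that liver (adjusted p = 0.124 by edgeR). The groups did not overlap for 6 members, which were Cox7b, mt-Atp6, Ndufb9 (-0.57), Uqcrb (-0.56), the Rieske iron-sulfur protein Uqcrfs1 (-0.42) and, higher, Atp5sl (0.53), against 1146 of 16071 genes in all.

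For the mitochondrially encoded members the median log2 fold change was -0.20 with 8 of 12 below 0, and without αACBP + Vehicle replicate 5 it was -0.0036 with 6 of 12 below 0. The 7 with fewer shared words had a median of -0.03 with all livers. Among them mt-Co1, the catalytic subunit of complex IV, had 13443, 12466, 9536, 24975 and 12734 CPM in Isotype + Vehicle and 14430.3, 24447, 16864, 24973 and 3295 CPM in αACBP + Vehicle. mt-Cytb, the central subunit of complex III, had 13721 ± 2363 against 11934 ± 4844 CPM (SD, n = 5). The log2 fold changes were 0.20 for mt-Co1, -0.20 for mt-Cytb, -0.03 for mt-Nd1, 0.00 for mt-Nd2, -0.21 for mt-Nd4, 0.16 for mt-Nd5 and -0.19 for mt-Nd6, none of them past the test. Without αACBP + Vehicle replicate 5 they were 0.46 for mt-Co1, -0.01 for mt-Cytb, 0.07 for mt-Nd1 and 0.18 for mt-Nd2. For mt-Nd4, mt-Nd5 and mt-Nd6 they were then -0.06, 0.40 and 0.01, again none past the test. Of the rest, with all livers, mt-Co2 had -0.49, mt-Co3 -0.71, mt-Nd3 -0.32 and mt-Nd4l 0.29.

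**Figure D4:**
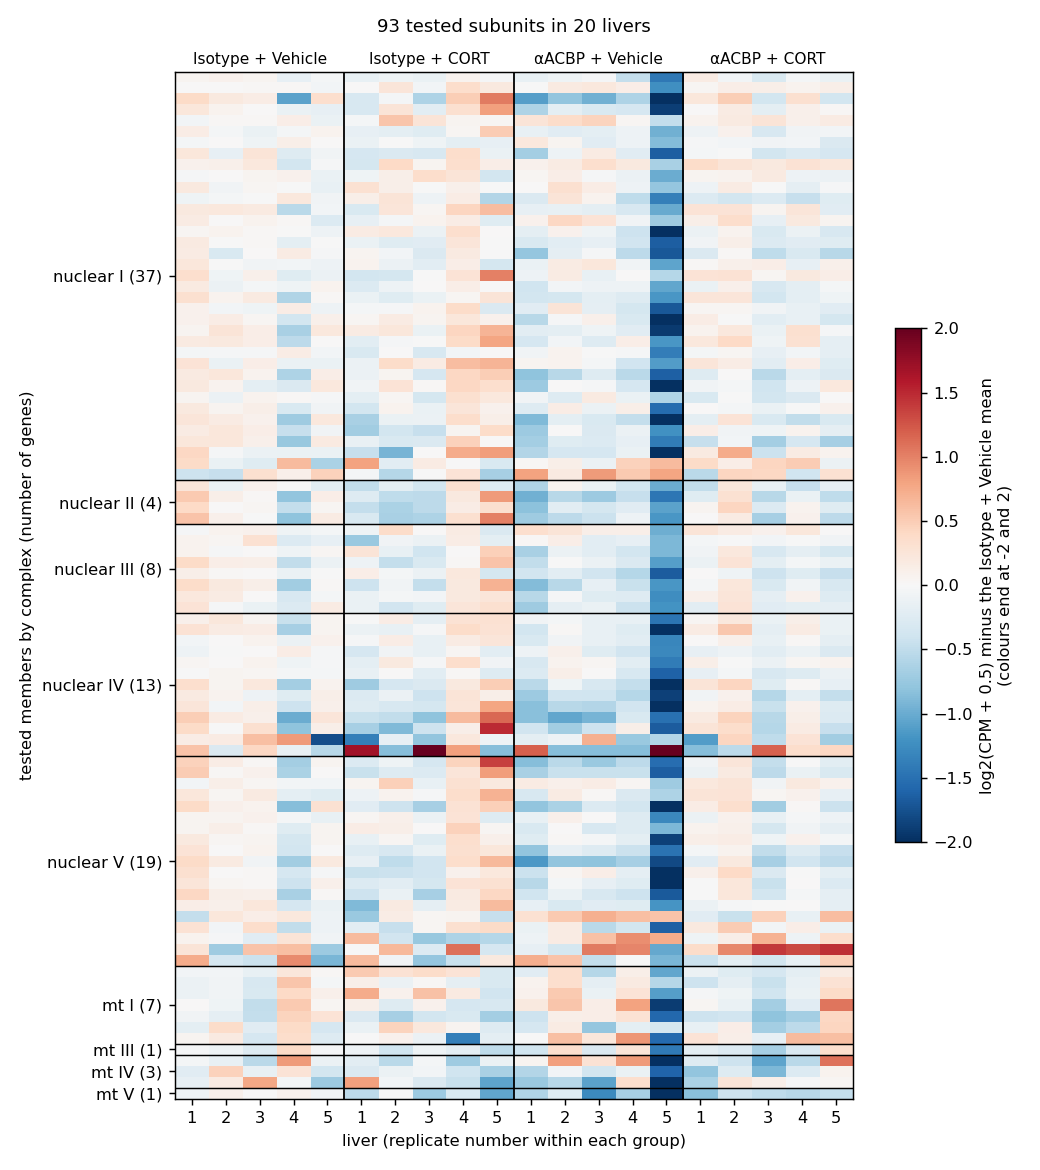
Heat map of log2(CPM + 0.5) minus the Isotype + Vehicle mean for the 93 tested members (rows, by complex) in the 20 livers (columns, by group), with blue for lower, red for higher and colours ending at -2 and 2. The column of αACBP + Vehicle replicate 5 is blue through nearly all members, with a nuclear median of -1.29.

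CORT was compared with vehicle under αACBP with the same αACBP + Vehicle livers, so the values below share them with the comparison above. No member was called by edgeR, for which 0.212% of all genes were higher, 0.0933% lower and 0.212% past both limits. An unadjusted p under 0.05 was found for 21 members (22.6%), against 12.7% of all genes. DESeq2 and limma-voom each called 1 higher, Ndufa4. DESeq2 called 1.94% of the genes to which it gave an adjusted p higher, and limma-voom 1.44% of all genes. The nuclear median was 0.31, with 72 of 81 above 0, and the complexes, with all livers, ran from 0.22 (I) to 0.46 (II). Over all genes tested the median was 0.01, with 8113 of 16071 above 0. Without αACBP + Vehicle replicate 5 the nuclear median was 0.15 with 60 of 81 above 0, and 6 members had an unadjusted p under 0.05. The mitochondrially encoded median was 0.03, or -0.19 without that liver.

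Ndufa4 had 112, 139, 123, 156 and 40.3 CPM in αACBP + Vehicle and 279, 335, 186, 300.2 and 186 CPM in αACBP + CORT, without overlap. The log2 fold change was 1.18 (SE 0.35, 95% interval 0.45 to 1.90, adjusted p = 0.141 by edgeR), against 1.16 by DESeq2 (adjusted p = 0.0157) and 1.09 by limma-voom (adjusted p = 0.0122), and 0.96 by edgeR without αACBP + Vehicle replicate 5 (adjusted p = 0.290). In the isotype groups the same gene had 254 ± 81.0 CPM on vehicle and 282 ± 136 on CORT (SD, n = 5). Atp5f1 had 189, 255, 139.5, 170.5 and 154 CPM in αACBP + CORT, all above the 63.4 to 139 of αACBP + Vehicle (log2 fold change 0.70, SE 0.24, adjusted p = 0.192, or 0.55 with an adjusted p of 0.431 without that liver, by edgeR). Atp5b, the catalytic beta subunit of ATP synthase, and Ndufb9, both named after their values were seen, were the other members whose groups did not overlap, with log2 fold changes of 0.71 and 0.59, so there were 4 such members against 441 of 16071 genes.

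**Figure D5:**
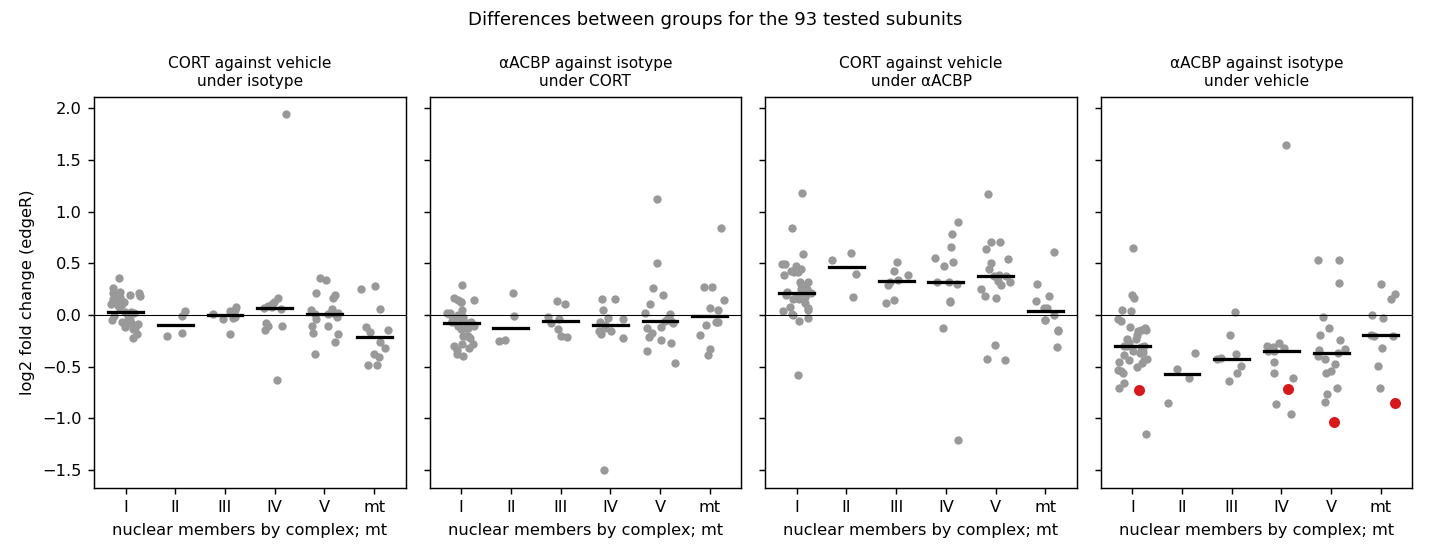
Log2 fold changes (edgeR, vertical) of the 93 tested members in each comparison, with nuclear members by complex, mitochondrially encoded members (mt) apart, red for called members and a line for each median. The nuclear medians are 0.02 for CORT under isotype, -0.08 for αACBP under CORT, 0.31 for CORT under αACBP and -0.37 for αACBP under vehicle.

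Whether the effect of CORT differed between the antibodies was tested as an interaction. No member was called by edgeR, by DESeq2 (2.36% of the genes to which it gave an adjusted p) or by limma-voom (0.411% of all genes). An unadjusted p under 0.05 was reached by 4 of 93 members (4.3%), against 10.6% of all genes. Of all genes 0.0996% were called higher, 0.0436% lower and 0.143% past both limits. The nuclear median of the interaction was 0.26 on the log2 scale, with 68 of 81 above 0, or 0.14 without αACBP + Vehicle replicate 5, and the median 95% interval of a nuclear member reached 0.60 to either side. Over all genes tested the median of the interaction was 0.03, with 8441 of 16071 above 0. Sdhc, a membrane anchor of succinate dehydrogenase, had 191, 146, 148, 104 and 148 CPM in Isotype + Vehicle and 104, 93.2, 101, 160.4 and 181 CPM in Isotype + CORT. It had 82.2, 124, 113, 124 and 68.9 CPM in αACBP + Vehicle and 150.4, 196, 119, 153 and 122 CPM in αACBP + CORT. The mean was thus lower on CORT under isotype and higher on CORT under αACBP, and the interaction was 0.74 (SE 0.30, adjusted p = 0.325 by edgeR). For mt-Atp6 it was 0.78 (SE 0.32, adjusted p = 0.331 by edgeR). Without αACBP + Vehicle replicate 5 the interaction was 0.65 for Sdhc (adjusted p = 0.413) and 0.61 for mt-Atp6 (adjusted p = 0.404), by edgeR.

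The genes around the chain were described from lists of the pathway. In αACBP against isotype under vehicle, 3 of 49 assembly factors were lower, Ndufaf1 (-0.73, adjusted p = 0.0360) and Ndufaf2 (-1.02, adjusted p = 0.0333) for complex I and Sco1 (-1.14, adjusted p = 0.0349), which helps to load copper into complex IV, with a list median of -0.31. Over all genes 2.36% were called lower and 2.78% higher. Of 23 partners of the chain that the symbols miss, 5 were lower, among them the ADP/ATP carrier Slc25a5 (-1.07) and the electron-transfer flavoprotein genes Etfa (-0.61) and Etfdh (-0.89), with a median of -0.23. Of 77 mitochondrial ribosomal proteins 3 were lower, Mrpl1 (-0.60), Mrps14 (-0.96) and Mrpl42 (-0.71), with a median of -0.24. Among 11 genes of oxidant defence the superoxide dismutase Sod2 (-0.60) and the peroxiredoxin Prdx3 (-0.84) were lower. Without αACBP + Vehicle replicate 5 none of these calls held, although the fold changes of 4 of them were then -0.93 for Ndufaf2, -1.06 for Sco1, -0.90 for Slc25a5 and -0.62 for Mrpl1, and 1 assembly factor, Foxred1, was higher (0.68, adjusted p = 0.0464).

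Some lists held calls in the other direction in the same comparison. Of 15 regulators of mitochondrial biogenesis, Esrra (the nuclear receptor ERRα) was higher by 0.81 (adjusted p = 0.0064, or 0.72 with 0.0224 without that liver) and Tfeb (a transcription factor of lysosome genes) by 0.98 (adjusted p = 0.0082, or 0.99 with 0.0184). Ppargc1a (-0.03), Nrf1 (0.31) and Gabpa (-0.34) did not pass. Of 31 genes that express and keep the mitochondrial genome, Mterf4 was higher (0.79, adjusted p = 0.0194, or 0.66 with 0.0692 without that liver), with a list median of 0.17, and Tfam, which packages mitochondrial DNA, had -0.14 and the RNA polymerase Polrmt 0.43. Of 10 tested mitochondrial RNAs other than the subunits, the large ribosomal RNA mt-Rnr2 was higher (1.25, adjusted p = 0.0181, or 0.99 with 0.0705 without that liver). The ribosomal RNAs mt-Rnr1 and mt-Rnr2 together held 0.315% to 1.01% of counts in αACBP + Vehicle, with 1.01% in replicate 5, and 0.150% to 0.430% in Isotype + Vehicle. None of 18 genes of the tricarboxylic acid cycle was called by edgeR, 5 had an unadjusted p under 0.05, DESeq2 called 2 and limma-voom 1. An unadjusted p under 0.05 was found for 20.6% of all genes. DESeq2 called 6.69% of the genes with an adjusted p lower, and limma-voom 5.46% of all genes lower and 6.17% higher.

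In CORT against vehicle under isotype the lists held 5 calls among 234 genes, all in the regulators, the tricarboxylic acid cycle and oxidant defence. Over all genes 1.34% were called higher and 1.86% lower. An unadjusted p under 0.05 was found for 21 of the 234 genes (8.97%), against 15.6% of all genes. Tfeb was higher (0.72, adjusted p = 0.0457, or 0.0512 without αACBP + Vehicle replicate 5, which is in neither group of this comparison). The pyruvate dehydrogenase subunit Pdha1 (0.60) and pyruvate carboxylase Pcx (0.62) were higher and Dlat, another pyruvate dehydrogenase subunit, lower (-0.70), and the glutathione peroxidase Gpx4 was higher (0.60). Cycs and Cyc1, the cytochromes c and c1 that the symbol rule leaves out, had log2 fold changes of 0.06 and 0.03, and Ppargc1a one of 0.59 (adjusted p = 0.228). The other 3 contrasts held no edgeR call among the 234 genes of the lists. An unadjusted p under 0.05 was found for 17 of them (7.26%, against 12.5% of all genes) for αACBP under CORT, 39 (16.7% against 12.7%) for CORT under αACBP and 20 (8.55% against 10.6%) in the interaction. DESeq2 called 3, 5 and 1 of them and limma-voom 0, 9 and 0. For αACBP under CORT and the interaction, DESeq2 called 2.68% and 2.36% of the genes with an adjusted p, and limma-voom 0.772% and 0.411%. For CORT under αACBP the shares called higher, the only direction given here, were 1.94% and 1.44%. The 5 and 9 calls of that contrast take in both directions, so these shares are not their full background.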

How the data were processed

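Liver RNA of 20 mice was sequenced by the authors, and the deposited table holds raw counts of read pairs per gene and liver, not normalized, made by the authors with HISAT2 and HTSeq in union mode with non-unique features taken in (the labels name mm10 and the methods GRCm39; the annotation release and strand setting are not given in the sources used here). Lines that name no gene were left out of library sizes; they held 42.3% to 45.2% (no gene), 1.17% to 2.18% (ambiguous), 3.42% to 5.00% (low quality), 2.01% to 5.75% (not aligned) and 5.92% to 10.6% (not unique) of pairs. Column names matched each library to its mouse, and the 5 mice of a group were the replicates. No pair of libraries of the same group agreed within sampling noise (lowest chi-square per degree of freedom 12), and pairs from different groups were not checked in this way.

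Genes kept by filterByExpr (16071 of 48440) were scaled by TMM and fitted in 1 model of 4 groups with robust quasi-likelihood tests (edgeR 4.0.16, R 4.3.3), two-sided, with Benjamini-Hochberg adjustment over all tested genes. Calls needed an adjusted p no higher than 0.05, and calls past both limits also a log2 fold change of 1 or more in either direction. Levels are TMM-normalized CPM, and log2 deviations use a pseudocount of 0.5. DESeq2 1.42.0, limma-voom (limma 3.58.1), other filters, other scalings, a replicate block and leaving out each liver were the alternatives. The fit was also run on simulated counts, and the outcome of that run is not used here. Lengths, overlaps and 100-base words came from GRCm39 and GENCODE M39, in which all 103 members and 44278 of 48440 gene identifiers were found, and promoters from RefSeq. The members and lists were chosen with earlier results of these data known. Members were named when mitochondrially encoded, highest or lowest per kilobase in a complex, past both limits, among up to 5 smallest p values called in a direction of a comparison (the 2 smallest p values where none was called), or in a tissue isoform family; others are said to be chosen after their values were seen. Protein sequences were not used here.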

Additional observations from a re-analysis of the deposited data

Results flagged for a closer look

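In 23 of 168 groups of 5 livers examined, the highest or lowest liver stood farther from its neighbour than Dixon's criterion allows, where chance gives about 1 in 20. Of these, 8 were Isotype + Vehicle replicate 4, 6 αACBP + Vehicle replicate 5 and 6 αACBP + CORT replicate 5, so the same livers recur and the values are not independent. No member passed the test for a difference in the CORT effect between antibodies.

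αACBP + Vehicle replicate 5 had 0.766% of its counts on nuclear members, against 1.27% to 1.40% in the other livers of its group, and a median log2 deviation of nuclear members of -1.29, against -0.31 to -0.04. Its levels were 219 CPM for Atp5e (369 to 403 in the others), 225 CPM for Cox4i1 (558 to 605) and 374 CPM for Uqcrq (800.1 to 929). In the other direction it had 5.50 CPM of Cox6b2 (0 to 1.56). The liver also had the lowest summed hepatocyte markers, 40759 CPM, and the largest share of pairs not aligned, 5.75%, whose part in these values was not tested.

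Isotype + Vehicle replicate 4 had 8.49% of its counts on mitochondrially encoded members (4.27% to 5.42% in the others) and a ratio of mitochondrial to nuclear counts of 6.50 (2.86 to 3.69). It had 24975 CPM of mt-Co1 (9536 to 13443) and 11978 CPM of mt-Nd1 (6521 to 7910), but 458 CPM of Cox4i1 (646 to 722), 113.5 CPM of Ndufa4 (265 to 313), 59.7 CPM of Ndufb6 (96.5 to 107) and 27.2 CPM of Ndufc2 (49.8 to 54.5). Its Malat1 and Neat1 sum, most of it Neat1, was 6539 CPM, the highest of the 20 livers, whose part in these values was not tested.

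αACBP + CORT replicate 5 had 8.46% on mitochondrially encoded members (3.74% to 4.57%), a ratio of 6.24 (2.79 to 3.20), 29401 CPM of mt-Co1 (6687 to 11621), 4481 CPM of mt-Nd5 (1343 to 2191), 1700 CPM of mt-Nd6 (726 to 979) and 0.811 CPM of Atp5l2-ps (0.202 to 0.355). Single values apart were 136 CPM of Cox7a2l in Isotype + CORT replicate 5 (26.1 to 52.7), 175 CPM of Uqcrc2 in αACBP + CORT replicate 2 (124 to 129) and 0.0652 CPM of mt-Nd4l in Isotype + CORT replicate 4 (0.773 to 1.05).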

How the results depend on the processing

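Over the alternatives run, the nuclear median lay between -0.48 and -0.20 for αACBP under vehicle, 0.15 and 0.39 for CORT under αACBP, 0.14 and 0.38 in the interaction, -0.14 and 0.0060 for αACBP under CORT and -0.08 and 0.07 for CORT under isotype, so the last 2 crossed 0. The mitochondrially encoded median lay between -0.32 and -0.12 for CORT under isotype and crossed 0 in the others (-0.32 to 0.04, -0.19 to 0.18, -0.10 to 0.36 and -0.16 to 0.05 in the order above). For CORT under αACBP the count of members called was 0, but 1 by DESeq2 and 1 by limma-voom. For αACBP under vehicle it was 4, and 14 by DESeq2, 16 by limma-voom, 7 with at least 10 counts in every liver, 1 with the limit of 1 on the log2 fold change added and 0 to 14 with each liver left out in turn. With the replicate block it was 2, since Cox7b (adjusted p = 0.0573) and Ndufb6 (adjusted p = 0.0753) were lost. Livers of the same number are different mice, their deviations correlated at -0.139 to 0.138 over 30 pairs, and 2 of 20 livers correlated best with a liver of their own number, so the numbers were not taken as pairing. The counts for the other 3 comparisons and the direction of every member named as called stayed as in the main test. Chosen after seeing the data, the pathway lists without αACBP + Vehicle replicate 5 also held 1 lower chain partner for αACBP under CORT. The cause of these changes was not tested.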
